A study of Homo sapiens with 12 samples.

Results

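Heat shock factor and chaperone genes were described in TE-1 cells, a cell line from a human oesophageal cancer, in which IFI6, an interferon-induced gene, had been overexpressed or interfered with. The 10 genes encode the transcription factors HSF1 and HSF2, the small heat shock proteins HSPB1, HSPB8 and CRYAB, the cytosolic HSP90 chaperones HSP90AA1 and HSP90AB1, and the co-chaperones CHORDC1, HSPH1 and BAG3. They were selected on the values of OE_IFI and OE_NC seen in an earlier look at these data, and were taken by symbol from the deposited table of 19771 protein-coding genes, where all 10 were found. All 10 also reached a mean of 1 FPKM (fragments scaled to transcript length and library size) over the 12 libraries, the minimum for testing, as did 10925 genes in all. CRYAB did so narrowly, at 1.11 FPKM, and only through the overexpression arm, since its means in the interference arm were below 1 FPKM.

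The 4 groups had 3 libraries each. OE_IFI cells received a vector that overexpresses IFI6, and OE_NC cells received the control for that vector. sh_IFI cells received a vector that interferes with IFI6, and sh_NC cells received its control. All 4 groups were TE-1 cells transfected, grown for 48 h in DMEM with FBS and sequenced as total RNA in long non-coding RNA libraries. Details not given in the sources used here include the promoter of the overexpression vector, the hairpin sequence and whether the cells were a pool or a clone. The labels do not state that the 3 libraries of a group were separate cultures. The p-values then cover the spread among these libraries alone, and that spread may be technical.

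The heat shock response is a transcriptional programme that raises the cell's capacity to fold and hold proteins. HSF1 is kept inactive by chaperones in unstressed cells, forms trimers when unfolded proteins accumulate, and binds inverted repeats of nGAAn, the heat shock element, in the promoters of chaperone genes. HSP90, HSP70 with its co-chaperones and the small heat shock proteins are among its classical targets, and many tumour cell lines keep them at high levels.

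Heat shock element letters were looked up in the RefSeq promoter windows of the 8 genes that have an entry. The windows were the 250 bases before each annotated start (GRCh38.p14, 12 starts in all). This was done because the chaperone and co-chaperone genes below are usually described as HSF1 targets. HSF2, itself a heat shock factor, is also among the 8 genes and had no match. Both strands were searched for GAANNTTC and TTCNNGAA, which each read the same on the opposite strand, and for their 3-unit forms, in which a further GAA or TTC follows after any 2 bases. The 2 forms with 3 units are each other on the opposite strand, and each contains 2-unit matches. A 2-unit form was present at 5 of the 12 starts, against 11.6% of all 35116 promoters in the table. A 3-unit form was present at 3 of the 12 starts, those of CHORDC1, the inner start of HSP90AA1 and the downstream start of HSP90AB1, against 0.441% of all promoters. These are matches of letters and not measured binding. RefSeq starts can differ from those of the deposited transcripts. The HSPB8 match lies downstream of the start of HSPB8-201 (119178642), and the whole windows of HSPB8 and CHORDC1 lie in GENCODE exons. HSPH1-201 and HSPH1-202 start at 31161927, downstream of the HSPH1 RefSeq start at 31162388, so the HSPH1 window does not adjoin them. The sequences shown are parts of these windows, 5′ to 3′ on the gene's strand, with the matched letters in capitals.

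The first 2 come from the same gene and show how its starts differ: the window before the downstream start of HSP90AB1 (chr6:44247693-44247865, plus strand), with a pair of 3-unit matches, and the window before its main start (chr6:44246851-44247086, plus strand), with none. The third is the window of HSPB1 (chr7:76302423-76302543, plus strand), with a single 2-unit match.
HSP90AB1 downstream start: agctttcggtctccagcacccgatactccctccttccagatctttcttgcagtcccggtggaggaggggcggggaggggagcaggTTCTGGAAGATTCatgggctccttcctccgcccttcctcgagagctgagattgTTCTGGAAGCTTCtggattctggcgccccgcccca
HSP90AB1 main start: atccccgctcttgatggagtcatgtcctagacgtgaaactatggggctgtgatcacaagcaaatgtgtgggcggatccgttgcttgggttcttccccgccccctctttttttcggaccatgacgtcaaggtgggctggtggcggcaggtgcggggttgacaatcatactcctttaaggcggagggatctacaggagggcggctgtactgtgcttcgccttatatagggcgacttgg
HSPB1: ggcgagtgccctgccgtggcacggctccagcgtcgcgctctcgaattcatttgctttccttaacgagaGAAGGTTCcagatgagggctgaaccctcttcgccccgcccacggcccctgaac

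The next 3 are 30-base stretches around the longest match of a gene: HSP90AA1 at its inner start (chr14:102087112-102087141, minus strand), CHORDC1 (chr11:90223084-90223113, minus strand), where the units run on without a break, and HSPB8 (chr12:119178832-119178861, plus strand), with a 2-unit match.
HSP90AA1: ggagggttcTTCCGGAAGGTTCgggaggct
CHORDC1: accgGAAAATTCGCGAAGGTTCCTGAAacg
HSPB8: tcatcacctccGAATATTCctgtgacagga

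Summed FPKM was 325877 to 357145 per library, and the number of reads behind each library is unknown. The 3 OE_NC libraries stood apart from the other 9: they lay at -30.6, -22.2 and -22.3 on the first principal component (23.1% of the variance), against 5.9 to 11.3 in the others. Every comparison that uses OE_NC rests on those libraries, so each gene is also set against sh_NC. IFI6 had 308.7, 268.4 and 358.2 FPKM in OE_IFI, against 27.3, 17.9 and 28.8 FPKM in OE_NC, and 15.1, 13.9 and 14.7 FPKM in sh_IFI, against 24.9, 24.1 and 21.2 FPKM in sh_NC. Interference therefore left IFI6 at 62.3% of the sh_NC mean (two-sided exact permutation p = 0.1, the smallest that 3 against 3 libraries allow, and limma adjusted p = 0.82 over all tested genes). Of 9 epithelial and squamous markers, KRT8 and KRT18 exceeded a mean of 1 FPKM in each group (814 to 1058 FPKM for KRT8), KRT5, SOX2 and EPCAM were listed at 0 in all 12 libraries, and KRT14, KRT19, TP63 and CDH1 were below 1 FPKM. Summed marker levels were 6.82 to 9.42 FPKM for fibroblasts (5 of 6 at a mean of 1 FPKM or more), 1.5 to 3.09 FPKM for immune cells (2 of 4, with CD3E listed at 0) and at most 0.131 FPKM for endothelial cells (0 of 3).

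Because the difference between OE_IFI and OE_NC was known when the genes were chosen, values of these 2 groups are given as a description of the 10 genes, without p-values, and only sh_IFI against sh_NC is read as a test. For the comparisons that use OE_IFI or OE_NC, the number of the 10 genes past the threshold is given once beside the share of all tested genes, and nothing is read from it. Differences are on the log2(FPKM + 1) scale, which understates changes of genes near 1 FPKM. In bulk RNA, fewer cells with a high level and less RNA per cell cannot be told apart. FPKM is scaled to length, so levels of different genes can be compared. HSP90AB1 had the highest mean of the 10 genes in each group, followed by HSPB1 and HSP90AA1, whose libraries overlapped in OE_IFI and in OE_NC but not in sh_IFI or sh_NC. CRYAB had the lowest mean in each group, and its libraries lay below those of CHORDC1, the next gene, in each. Between them lay HSF1, HSPH1, HSPB8, HSF2, BAG3 and CHORDC1, at group means of 4.49 to 26.2 FPKM. HSPH1 ranked above HSF1 in OE_NC, where their libraries did not overlap, and below it in the other 3 groups.

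**Figure D1:**
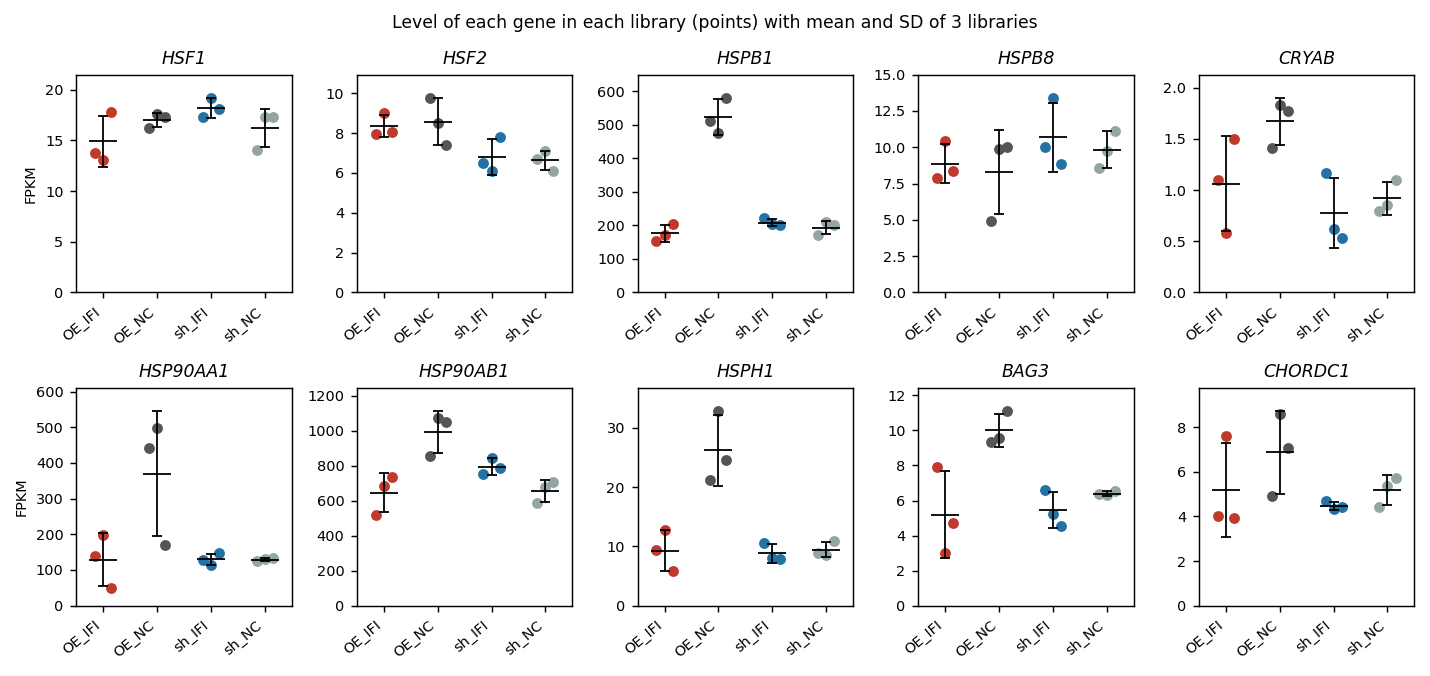
FPKM of each of the 10 genes (vertical axes, each from 0 with its own scale) in the 3 libraries of each group (points), with the mean and SD (bars). The OE_NC points of HSPB1, HSP90AB1, HSPH1 and BAG3 lie above those of all 9 other libraries, whereas those of HSF1 lie among the others.

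HSF1 and HSF2, the transcription factors of the response, differed little between the groups. HSF1 (ENSG00000185122, chromosome 8, 144291591 to 144326904, plus strand), the main heat shock regulator, had 13.8, 13.1 and 17.8 FPKM in OE_IFI, against 16.2, 17.6 and 17.3 FPKM in OE_NC. These groups overlapped, because OE_IFI library 3 was above all 3 OE_NC libraries. HSF1 had 17.3, 19.2 and 18.1 FPKM in sh_IFI, against 14.1, 17.3 and 17.3 FPKM in sh_NC. The lowest sh_IFI library exceeded the highest sh_NC library by less than the third digit. The log2 difference of HSF1 was -0.19 (SE 0.13) for OE_IFI minus OE_NC. HSF2 (ENSG00000025156, chromosome 6, 122399546 to 122433119, plus strand), a paralog that can form mixed trimers with HSF1, had 7.97, 8.99 and 8.07 FPKM in OE_IFI, against 9.77, 8.53 and 7.42 FPKM in OE_NC. Its log2 difference was -0.03 (SE 0.13), and the libraries overlapped. HSF2 had 6.49, 6.08 and 7.81 FPKM in sh_IFI, against 6.70, 7.08 and 6.11 FPKM in sh_NC, which also overlapped. Its OE_IFI and OE_NC libraries all lay above the 3 sh_NC libraries. OE_IFI exceeded sh_NC by 0.29 and OE_NC exceeded it by 0.32 on the log2 scale (SE 0.13 each).

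The transcripts of HSF1 were less even than its gene level. HSF1-204 (ENST00000528838), a protein-coding transcript, had 2.86, 3.91 and 5.90 FPKM in OE_IFI, against 3.15, 3.13 and 3.26 FPKM in OE_NC. It had 4.52, 4.80 and 5.45 FPKM in sh_IFI, against 2.22, 2.90 and 0.327 FPKM in sh_NC, so that the sh groups did not overlap. HSF1-201 (ENST00000400780), also protein-coding, had 4.42, 8.12 and 4.28 FPKM in sh_IFI, against 5.71, 7.77 and 8.24 FPKM in sh_NC. The share of HSF1-204 in the gene's FPKM, taken from the group means, was 28.3% in OE_IFI, against 18.7% in OE_NC. It was 27.0% in sh_IFI, against 11.2% in sh_NC. By library it was 20.7%, 29.9% and 33.1% in OE_IFI, against 19.4%, 17.8% and 18.9% in OE_NC. The sh_IFI libraries had 26.1%, 25.0% and 30.2%, against 15.7%, 16.8% and 1.9% in sh_NC, where library 3 lowered the share of the group. An assembled transcript without a GENCODE 29 entry held 14.9% to 17.4% of HSF1 over the 4 group means. These transcript values were not tested. HSF2-201 and HSF2-202 held 61.1% to 69.0% and 26.5% to 31.2% of HSF2 over the 4 group means. How strand was used in assigning reads was not given in the sources used here. HSF1 shares 139 exon bases with DGAT1 on the other strand, which had 15.6 to 25.4 FPKM, and reads of the 2 genes there cannot be told apart.

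Among the small heat shock proteins, HSPB1 was separated between OE_IFI and OE_NC, whereas the libraries of HSPB8 and CRYAB overlapped. HSPB1 (ENSG00000106211, chromosome 7, 76302673 to 76304295, plus strand) encodes HSP27, an oligomeric chaperone that binds unfolding proteins without using ATP, and its promoter window is shown above. It had 153.8, 170.5 and 203.7 FPKM in OE_IFI, against 511.4, 476.0 and 580.0 FPKM in OE_NC. The OE_IFI libraries lay far below all 3 OE_NC libraries and within or just below the range of the interference arm. That arm had 220.7, 203.0 and 200.6 FPKM in sh_IFI, against 170.8, 208.6 and 200.3 FPKM in sh_NC. The OE_IFI mean was 0.337 of the OE_NC mean (log2 difference -1.57, SE 0.13, 95% interval -1.84 to -1.29). HSPB1-201 (ENST00000248553) carried 97.1% to 99.6% of the gene's FPKM over the 4 group means, and 2 pseudogene copies listed for HSPB1 reached at most 0.453% of its level in any library. HSPB8 (ENSG00000152137, chromosome 12, 119178642 to 119221131, plus strand), the partner of BAG3 in selective autophagy of misfolded proteins, had 7.86, 10.4 and 8.36 FPKM in OE_IFI, against 4.92, 9.88 and 10.0 FPKM in OE_NC. The groups overlapped, with the lowest value in OE_NC library 1, and the log2 difference was 0.14 (SE 0.23). It changed sign, to -0.16, without that library. HSPB8 had 9.99, 13.4 and 8.84 FPKM in sh_IFI, against 8.57, 9.77 and 11.1 FPKM in sh_NC, which overlapped, and HSPB8-201 held at least 92.8% of it in each group mean. CRYAB (ENSG00000109846, chromosome 11, 111908619 to 111923722, minus strand), alpha-B crystallin, had 1.10, 0.579 and 1.5 FPKM in OE_IFI, against 1.41, 1.83 and 1.77 FPKM in OE_NC. It had 1.17, 0.618 and 0.533 FPKM in sh_IFI, against 0.796, 0.853 and 1.10 FPKM in sh_NC. CRYAB was low throughout, its groups overlapped in both arms, and its log2 difference for OE_IFI minus OE_NC was -0.40 (SE 0.18). CRYAB-217 held at least 87.7% of it in each group mean. On the other strand CRYAB shares 626 exon bases with HSPB2, which had at most 0.23 FPKM.

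The cytosolic HSP90 genes were lower on average in OE_IFI than in OE_NC. HSP90AB1 (ENSG00000096384, chromosome 6, 44246166 to 44253888, plus strand), the constitutive beta isoform, had 519.3, 683.7 and 735.9 FPKM in OE_IFI, against 853.8, 1072 and 1050.0 FPKM in OE_NC. All 3 OE_IFI libraries lay below all 3 OE_NC libraries. It had 752.5, 847.2 and 786.1 FPKM in sh_IFI, against 585.8, 676.9 and 704.5 FPKM in sh_NC, where all 3 sh_IFI libraries lay above all 3 sh_NC libraries. The OE_IFI mean was 0.651 of the OE_NC mean (log2 difference -0.63, SE 0.14), and the OE_NC libraries lay above the other 9. HSP90AA1 (ENSG00000080824, chromosome 14, 102080738 to 102139699, minus strand), the stress-inducible alpha isoform, had 137.9, 198.7 and 50.2 FPKM in OE_IFI, against 441.6, 497.8 and 170.6 FPKM in OE_NC. Library 3 was the lowest in each of these groups, and OE_NC library 3 lay below OE_IFI library 2, so the groups overlapped. It had 126.6, 114.3 and 147.2 FPKM in sh_IFI, against 124.4, 129.6 and 132.5 FPKM in sh_NC, a narrow and overlapping range. The OE_IFI mean was 0.348 of the OE_NC mean, with a log2 difference of -1.58 (SE 0.46, 95% interval -2.58 to -0.58). It was -2.06 without OE_NC library 3, -1.99 without OE_IFI library 2 and -1.01 without OE_IFI library 3. The ratio of HSP90AB1 to HSP90AA1 was 3.77, 3.44 and 14.7 in OE_IFI, against 1.93, 2.15 and 6.15 in OE_NC, with library 3 far above the others in both groups. It was 5.94, 7.41 and 5.34 in sh_IFI, against 4.71, 5.22 and 5.32 in sh_NC, with no library apart.

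The deposited transcript values divided HSP90AA1 differently from library to library. HSP90AA1-202 (ENST00000334701), which starts near the outer RefSeq start, had 6.01, 145.1 and 0.16 FPKM in OE_IFI, against 411.4, 344.4 and 0.127 FPKM in OE_NC. HSP90AA1-201 (ENST00000216281), which starts 147 bases upstream of the inner RefSeq start, so that the 3-unit match shown above lies inside it, had 128.6, 44.4 and 45.5 FPKM in OE_IFI, against 22.8, 146.7 and 164.7 FPKM in OE_NC. The library 3 of each overexpression group had almost no HSP90AA1-202 and the lowest gene level of its group, and the part of this transcript assignment in the gene's difference was not tested. In the interference arm HSP90AA1-202 had 88.9, 83.8 and 57.3 FPKM in sh_IFI, against 95, 92.6 and 94.9 FPKM in sh_NC. HSP90AA1-201 had 33, 25.2 and 80.4 FPKM in sh_IFI, against 24.3, 32.1 and 33.8 FPKM in sh_NC, so both transcripts were present in all 6 libraries. Multiplying each transcript by its length before summing, with no constant added before the log, was an alternative chosen after seeing the data and gave a log2 difference of -1.64 for OE_IFI minus OE_NC, close to the -1.58 of the gene value. HSP90AA1 shares 197 exon bases with WDR20 on the other strand (2.8 to 4.01 FPKM), and its 4 listed pseudogene copies summed to at most 1.44% of its level in any library.

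HSP90AB1 was almost entirely the transcript from its main start. HSP90AB1-203 (ENST00000371646), whose first base is the RefSeq main start, held 98.9% to 99.8% of the gene's FPKM over the 4 group means. HSP90AB1-202 (ENST00000371554) begins 77 bases upstream of the downstream RefSeq start, next to the window with the 3-unit elements, and was singled out after its values were seen. It had 1.01, 0.769 and 0.421 FPKM in OE_IFI, against 8.80, 12.9 and 6.62 FPKM in OE_NC. It had 0.253, 0.198 and 0.390 FPKM in sh_IFI, against 0.155, 3.42 and 4.63 FPKM in sh_NC. The OE_NC libraries held the 3 highest values of all 12, and sh_NC libraries 2 and 3 the next. This transcript made up 0.953% of the gene in OE_NC, so the difference of HSP90AB1 between the groups lay almost entirely in HSP90AB1-203. It had 516.5, 681.6 and 734.0 FPKM in OE_IFI, against 843.4, 1057 and 1042 FPKM in OE_NC.

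**Figure D2:**
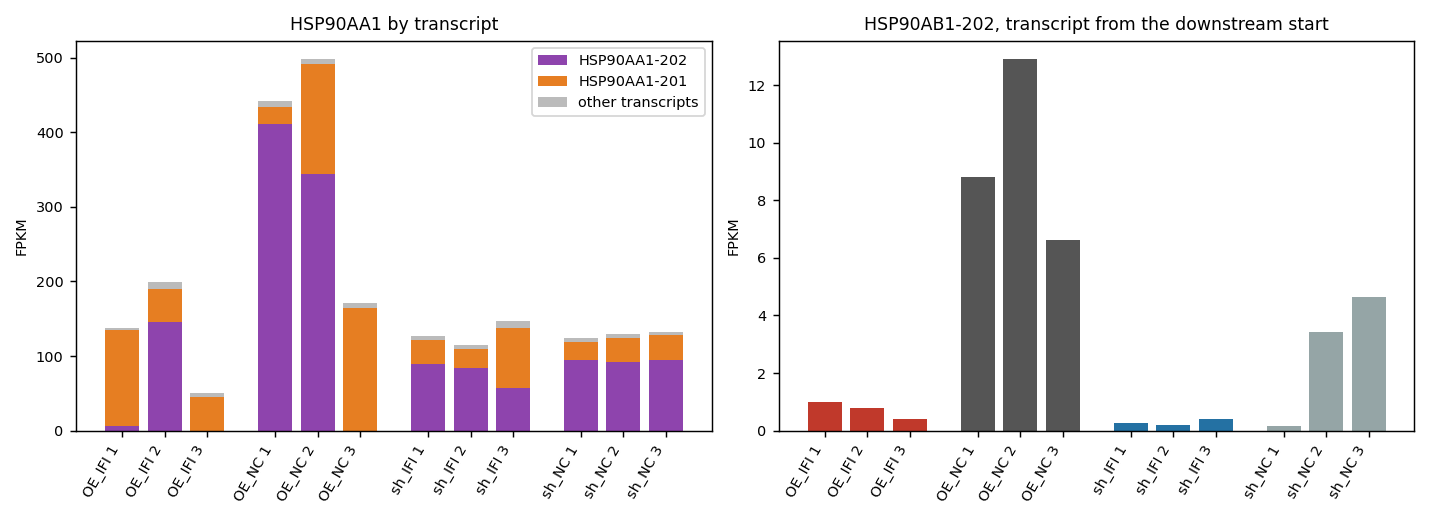
Left, FPKM of HSP90AA1 in each library (horizontal axis, group and replicate), stacked by transcript; right, FPKM of HSP90AB1-202 in the same libraries. HSP90AA1-202 is nearly absent from library 3 of OE_IFI and of OE_NC, and HSP90AB1-202 is highest in the 3 OE_NC libraries, at 6.62 to 12.9 FPKM.

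Of the co-chaperones, HSPH1 and BAG3 were separated between OE_IFI and OE_NC and CHORDC1 was not. HSPH1 (ENSG00000120694, chromosome 13, 31134974 to 31162388, minus strand) encodes HSP110, a nucleotide exchange factor of HSP70. It had 9.39, 12.7 and 5.84 FPKM in OE_IFI, against 21.2, 32.8 and 24.6 FPKM in OE_NC. Each OE_NC library was above each OE_IFI library and above the interference arm, which had 10.6, 7.98 and 7.87 FPKM in sh_IFI, against 8.84, 8.52 and 10.9 FPKM in sh_NC. The OE_IFI mean was 0.355 of the OE_NC mean (log2 difference -1.43, SE 0.24, 95% interval -1.95 to -0.92). HSPH1-202 (ENST00000380405), its main transcript in OE_NC at 73.5% of the gene, was listed at 0 in OE_IFI library 3 and sh_IFI library 3. HSPH1-201 (ENST00000320027) had 3.96 and 5.66 FPKM in those libraries, against 0.986 to 2.22 FPKM in the other 10. With lengths multiplied in, the log2 difference of HSPH1 was -1.39.

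BAG3 (ENSG00000151929, chromosome 10, 119567617 to 119677819, plus strand), an HSP70 nucleotide exchange factor that hands misfolded proteins to autophagy together with HSPB8, had 7.91, 2.99 and 4.69 FPKM in OE_IFI, against 9.36, 9.58 and 11.1 FPKM in OE_NC. The groups did not overlap, but OE_IFI library 1 came close to the lowest OE_NC library. BAG3 had 6.60, 5.25 and 4.55 FPKM in sh_IFI, against 6.35, 6.30 and 6.55 FPKM in sh_NC, which overlapped. The OE_IFI mean was 0.519 of the OE_NC mean (log2 difference -0.90, SE 0.23). It was -0.63 without OE_IFI library 2. BAG3-202 (ENST00000450186), a protein-coding transcript that starts downstream of BAG3-201, made up 1.1%, 40.3% and 23.4% of BAG3 in the OE_IFI libraries, against 0.7%, 0.9% and 7.1% in the OE_NC libraries. BAG3-201 (ENST00000369085) had 7.54, 1.65 and 2.69 FPKM in OE_IFI, against 9.2, 9.0 and 10.3 FPKM in OE_NC. With lengths multiplied in, and with no constant added, the log2 difference of BAG3 was -1.36.

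CHORDC1 (ENSG00000110172, chromosome 11, 90200429 to 90223077, minus strand), an HSP90-binding protein with zinc-binding CHORD domains, had 4.03, 7.61 and 3.91 FPKM in OE_IFI, against 4.92, 8.60 and 7.09 FPKM in OE_NC. The groups overlapped, and the log2 difference was -0.37 (SE 0.22). It had 4.69, 4.35 and 4.42 FPKM in sh_IFI, against 4.44, 5.38 and 5.74 FPKM in sh_NC, which also overlapped. Its FPKM was spread over several transcripts. CHORDC1-201, protein-coding, held 35.0% to 45.4% of the 4 group means, and the protein-coding CHORDC1-205 held 15.8% in OE_IFI, against 26.1% in OE_NC, and 21.7% in sh_IFI, against 17.9% in sh_NC. CHORDC1-209, a retained-intron transcript, was listed at 0 in 4 libraries and reached 1.90 FPKM in OE_IFI library 2. An assembled transcript held 9.22% to 12.6% of the group means and CHORDC1-204, a transcript annotated for nonsense-mediated decay, 4.37% to 11.7%. AP002364.1, on the other strand over 212 exon bases of CHORDC1, had at most 0.342 FPKM.

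Counted together, 4 of the 10 genes (HSPB1, HSPH1, BAG3 and HSP90AB1) were called lower in OE_IFI than in OE_NC, meaning a Benjamini-Hochberg adjusted p under 0.05 over all tested genes, and 0 were called higher. Of all tested genes, 3.56% were called lower, 4.1% were called higher and 7.66% were called in either direction. The same 4 genes had OE_IFI libraries wholly below OE_NC libraries, as had 9.78% of tested genes. The median log2 difference of the 10 genes was -0.51, against 0.05 over all tested genes. Because the set was chosen with this contrast known, nothing is read from these counts. The count of 4 fell to 2 without OE_NC library 2 or with only these 2 groups fitted. In both settings the calls of BAG3 and HSP90AB1 were lost. The BAG3 call was also lost with no filter. It was lost without OE_IFI library 2 or 3, OE_NC library 1 or 3, sh_IFI library 2 or any single sh_NC library. HSP90AB1 also lost its call under quantile normalization and without OE_IFI library 1 or OE_NC library 3.

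**Figure D3:**
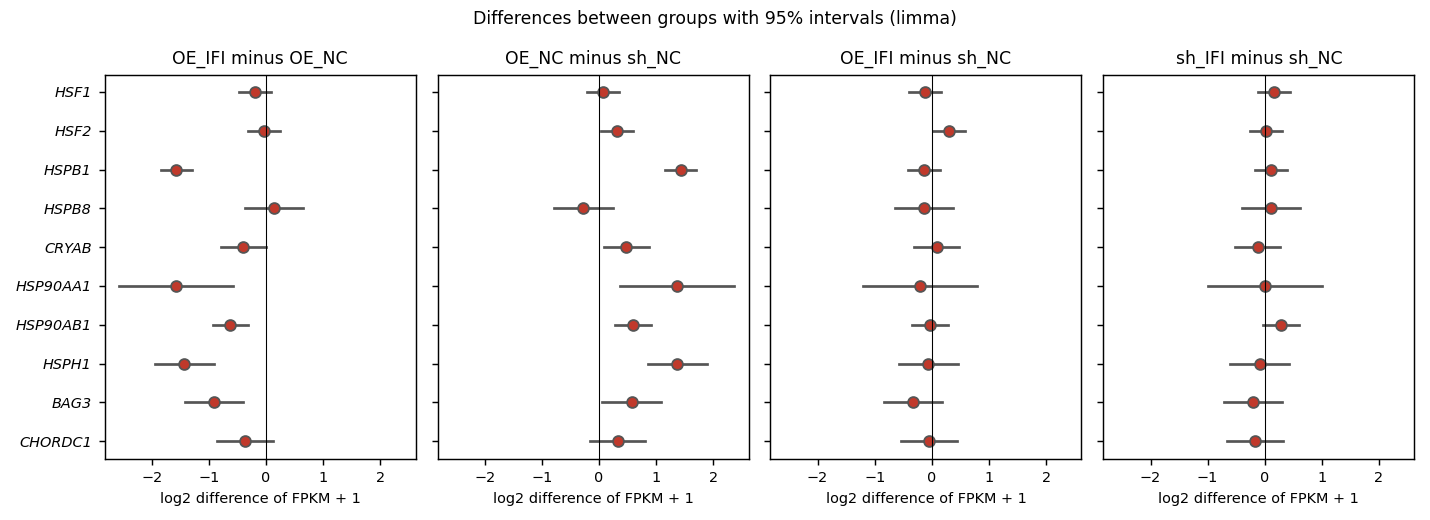
log2 difference of FPKM + 1 (horizontal axes) of each gene in 4 comparisons (points), with unadjusted 95% intervals from limma (lines). The intervals of HSPB1, HSPH1, BAG3, HSP90AB1, HSP90AA1 and CRYAB lie below 0 in OE_IFI minus OE_NC, and all 10 intervals cross 0 in sh_IFI minus sh_NC. HSP90AA1 and CRYAB were not called after adjustment. The genes were selected on the OE_IFI and OE_NC values, so intervals in comparisons that use these groups are a description and not a test.

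Interference with IFI6, the comparison not used to choose the genes, moved none of the 10 past the threshold. In sh_IFI minus sh_NC 0 of the 10 genes were called by limma with Benjamini-Hochberg adjustment over 10925 genes. That count was also 0 over all tested genes (0%), of which 563 had an unadjusted p under 0.05, with 0 of the 10 genes among them. The log2 differences ran from -0.21 for BAG3 (95% interval -0.71 to 0.30, limma adjusted p = 0.87) to 0.28 for HSP90AB1 (95% interval -0.03 to 0.59, limma adjusted p = 0.82). The median was 0.01, against 0.00 over all tested genes. HSPB1, at 0.11, had an interval of -0.16 to 0.38 (limma adjusted p = 0.87), and HSPH1, at -0.09, had one of -0.61 to 0.43 (limma adjusted p = 0.96). HSF1, at 0.16, had an interval of -0.12 to 0.44 (limma adjusted p = 0.83). For HSP90AA1 the difference was 0.00 and the interval the widest of the 10, from -1.0 to 1.0 (limma adjusted p = 1), since its OE libraries enter the shared estimate of the spread. HSF1 and HSP90AB1 had sh_IFI libraries wholly above the sh_NC libraries, 2 of 10 genes, against 9.46% of all tested genes.

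Set against sh_NC, the control of the other vector, the OE_IFI libraries overlapped for all of the 10 genes but HSF2. The OE_NC libraries overlapped sh_NC only for HSF1, HSPB8 and CHORDC1. These comparisons share OE_IFI, OE_NC and sh_NC libraries with each other and with those above, so their values are given side by side. The genes were selected on the OE_IFI and OE_NC values, so these counts too are a description. In OE_IFI minus sh_NC, 0 of the 10 genes were called, against 0.0183% of tested genes, and the log2 differences ran from -0.33 for BAG3 to 0.29 for HSF2, with a median of -0.09. HSPB1 differed by -0.14 (SE 0.13), HSPH1 by -0.06 (SE 0.24) and HSP90AB1 by -0.03 (SE 0.14). HSP90AA1 differed by -0.21 (SE 0.46), which became 0.36 without OE_IFI library 3. In OE_NC minus sh_NC, 3 of the 10 genes were called higher and 0 lower, against 2.75% of tested genes called higher and 7.52% in either direction, with a median of 0.52. These were HSPB1 at 1.43 (SE 0.13), HSPH1 at 1.37 (SE 0.24) and HSP90AB1 at 0.59 (SE 0.14). The HSP90AB1 call was lost with no filter, under quantile normalization or with only these 2 groups. Leaving out OE_NC library 2 or 3 or any single sh_NC library also lost it. HSP90AA1 differed by 1.37 (SE 0.46), and by 1.86 without OE_NC library 3. BAG3 differed by 0.57 (SE 0.23), CRYAB by 0.48 (SE 0.18) and HSPB8 by -0.27 (SE 0.23). The OE_NC libraries lay wholly above the sh_NC libraries for 7 of the 10 genes, against 10.1% of tested genes, and CRYAB, 1 of the 7, reached the minimum for testing through the overexpression arm. OE_IFI lay wholly above sh_NC for HSF2 alone, against 3.0% of tested genes. HSPB1, HSP90AB1, HSPH1 and BAG3 were higher in all 3 OE_NC libraries than in the other 9, as were 5.01% of tested genes.

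Of the genes around these 10 in the pathway, the other targets of HSF1 were mostly lower in OE_IFI than in OE_NC. This list holds 18 genes outside the 10, of which 17 were tested. Part of it was known to differ in these data when it was drawn up. Its counts are therefore a description, and no p-value is given for its genes in the comparisons with OE_NC. FKBP4, AHSA1 and HSPA4L, named below under other lists, are also on it. In OE_IFI minus OE_NC 11 of the 17 were called lower and 0 higher, against 3.56% of all tested genes called lower, and the median was -0.75, against 0.05. With only these 2 groups fitted, 7 were called lower. In sh_IFI minus sh_NC 0 passed, with a median of 0.07. In OE_IFI minus sh_NC 0 of the 17 were called, with a median of 0. In OE_NC minus sh_NC 12 of the 17 were called higher and 0 lower, against 2.75% of all tested genes called higher, with a median of 0.69. HSPA8, the constitutive cytosolic HSP70, had 619.4, 483.5 and 535.3 FPKM in OE_IFI, against 1324, 972.4 and 1161 FPKM in OE_NC. The log2 difference was -1.07 (SE 0.20). HSPA8 had 666.9, 490.5 and 956.9 FPKM in sh_IFI, against 434.7, 419.8 and 436.4 FPKM in sh_NC, a difference of 0.66 that did not pass (limma adjusted p = 0.82) although the libraries did not overlap. The log2 difference of HSPD1, the mitochondrial chaperonin, was -0.75 (SE 0.11) and that of the polyubiquitin gene UBB -0.51 (SE 0.13) in OE_IFI minus OE_NC. HSPA1A and HSPA1B, both on the list, have near-identical sequences that can trade reads, so how reads divide between the pair is uncertain. Both were lower in OE_IFI, with means of 7.75 FPKM for HSPA1A and 11.1 FPKM for HSPA1B, against 134.4 and 152.3 FPKM in OE_NC. Their means in sh_IFI and sh_NC were 11.7 and 12.1 FPKM for HSPA1A, and 14.0 and 14.5 FPKM for HSPA1B. OE_IFI minus sh_NC was -0.59 (SE 0.26) for HSPA1A and -0.35 (SE 0.23) for HSPA1B, and neither was called. OE_NC minus sh_NC was 3.32 (SE 0.26) and 3.25 (SE 0.23), and both were called higher.

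The HSP90 co-chaperones and the lists after them were also drawn up with earlier results of these data known. Their counts in comparisons with OE_IFI or OE_NC are therefore a description too, without p-values. In OE_IFI minus OE_NC, 1 of 27 tested co-chaperones other than CHORDC1 was called lower and 0 higher, against 3.56% of all tested genes called lower. Their median was -0.14, against 0.05 over all tested genes. FKBP4, an immunophilin of steroid receptor complexes, had 114.2, 121.7 and 153.2 FPKM in OE_IFI, against 194.2, 186.1 and 189.3 FPKM in OE_NC. It was called lower, at -0.56 (SE 0.11), and is already counted among the other HSF1 targets called lower. The count depended on the scaling and on single libraries: 4 co-chaperones fell with median-of-ratios scaling, 2 without OE_NC library 3, 3 without OE_IFI library 2, and 2 without OE_IFI library 3 or sh_NC library 1, against 0 when only these 2 groups were fitted. AHSA1, which stimulates the HSP90 ATPase, differed by -0.54 (SE 0.16), PTGES3, the co-chaperone p23, by -0.76 (SE 0.33) and FKBP8 by -0.11 (SE 0.12). None of them was called. In OE_NC minus sh_NC FKBP4 was called higher at 0.61 (SE 0.11), AHSA1 at 0.69 (SE 0.16) and PTGES3 at 1.22 (SE 0.33). This count of 3 was 1 without sh_NC library 1 or sh_NC library 2 and 5 with median-of-ratios scaling. PTGES3 had 316.0 FPKM in OE_NC library 1, against 151.3 and 141.1 FPKM in the other OE_NC libraries.

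HSP90B1, the HSP90 of the endoplasmic reticulum, had 156.2, 222.5 and 159.4 FPKM in OE_IFI, against 259.8, 343.7 and 258.2 FPKM in OE_NC. The interference arm had 186.8, 161.8 and 201.9 FPKM in sh_IFI, against 194.9, 204.4 and 199.4 FPKM in sh_NC. HSP90B1 differed by -0.17 (SE 0.16) in OE_IFI minus sh_NC and by 0.51 (SE 0.16) in OE_NC minus sh_NC, and was called in neither. It was called lower in OE_IFI than in OE_NC, at -0.68 (SE 0.16). The call was lost without OE_NC library 2, OE_IFI library 1 or OE_IFI library 3, each of which left 0 calls on this list of 2, and also under quantile normalization or with only these 2 groups. TRAP1, the mitochondrial HSP90, differed by -0.07 (SE 0.15) and was not called. Of 5 other BAG genes, BAG1 was called higher in OE_IFI than in OE_NC, at 0.61 (SE 0.14). It had 45.0, 59.3 and 57.6 FPKM in OE_IFI, against 35.1, 31.3 and 37.9 FPKM in OE_NC. The interference arm had 67.6, 65.9 and 62.6 FPKM in sh_IFI, against 50.5, 66.7 and 63.7 FPKM in sh_NC. BAG1 was called lower in OE_NC minus sh_NC, at -0.77 (SE 0.14), and was not called in OE_IFI minus sh_NC, at -0.16 (SE 0.14). In OE_IFI minus OE_NC BAG1 was the reverse of BAG3. In that comparison 0 BAG genes rose without OE_NC library 2, OE_IFI library 2 or OE_IFI library 3, or with only these 2 groups. BAG6 and BAG4 differed by -0.14 and 0.14 (SE 0.13 and 0.14) and were not called. None of 3 tested HSP70 relatives of HSPH1 passed: HSPA4, HYOU1 and HSPA4L differed by -0.24, -0.35 and 0.11 (SE 0.12, 0.32 and 0.20).

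Known regulators of HSF1 stayed under the threshold in all 4 comparisons. In OE_IFI minus OE_NC 0 of 17 passed (median 0.06). VCP differed by -0.25, MAP2K1 by -0.13 and HSBP1L1 by -0.23 (SE 0.17, 0.15 and 0.10). The largest difference of the 17 was that of DYRK2, at 1.13 (SE 0.32), which was not called although the libraries did not overlap. DYRK2 had 7.13, 7.95 and 5.25 FPKM in OE_IFI, against 1.74, 4.27 and 2.02 FPKM in OE_NC. It had 4.39, 3.05 and 3.58 FPKM in sh_IFI, against 2.04, 6.70 and 3.27 FPKM in sh_NC. In OE_IFI minus OE_NC, median-of-ratios scaling called 1 of the 17 higher, as did leaving out OE_NC library 2, sh_NC library 1 or sh_NC library 2. HSF4, the lens-associated factor and the 1 other tested member of its family, differed by 0.06 (SE 0.23) and was not called. HSPB7 and HSPB3, the other tested small heat shock proteins, differed by 0.03 and -0.35 (SE 0.14 and 0.17) and were not called. Of 6 tested partners of BAG3 and HSPB8 in selective autophagy, only HSPA8, described above, was called, and it was lower. The autophagy receptor SQSTM1 differed by -0.13 and the ubiquitin ligase STUB1 by 0.20 (SE 0.10 and 0.13). A second gene of this list passed without OE_NC library 1 or OE_IFI library 3. In sh_IFI minus sh_NC 0 genes of any of these lists passed.

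**Figure D4:**
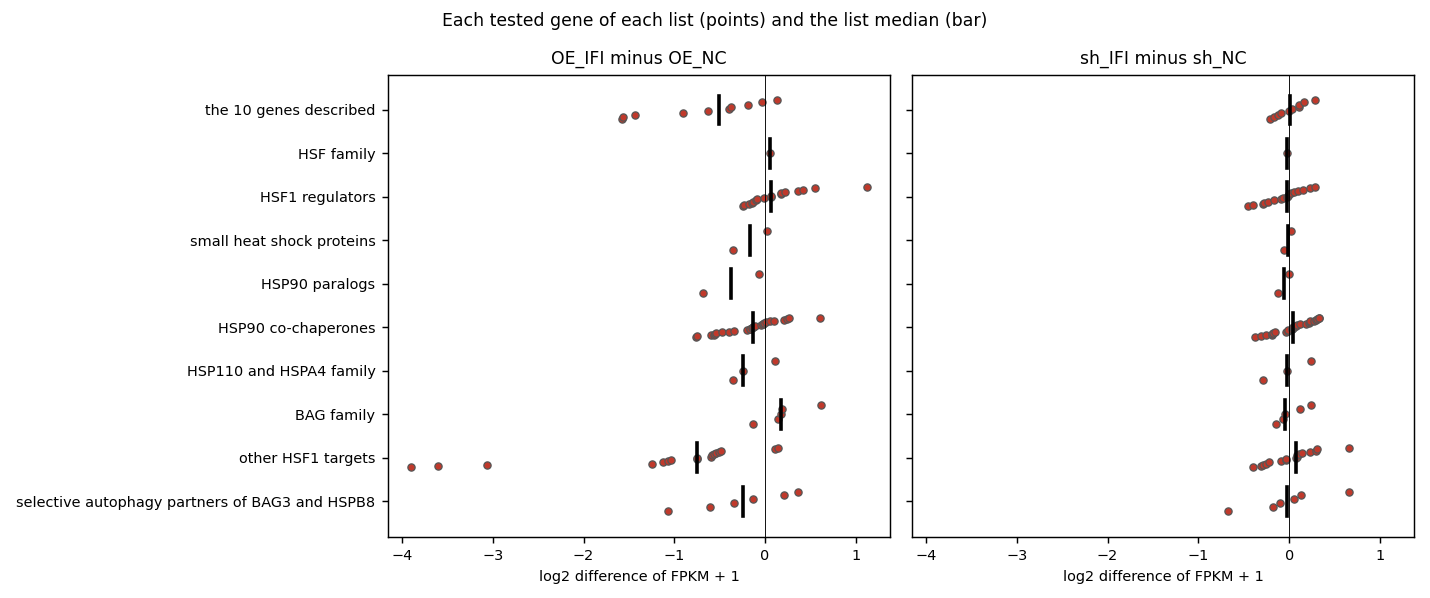
log2 difference of FPKM + 1 (horizontal axes) of each tested gene (points) of the 10 described genes and of 9 pathway lists without them (rows), in OE_IFI minus OE_NC and sh_IFI minus sh_NC; bars are list medians. The other HSF1 targets have a median of -0.75 on the left and 0.07 on the right.

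Each gene was set beside the 2 tested genes whose centred log2 values differed least from its own over the 12 libraries, measured as the root mean square difference. HSPB1 was followed most closely by ISG15, an interferon-induced ubiquitin-like gene (0.117), and PPP1R15A, a stress-induced phosphatase subunit gene (0.127). Relative to the mean of all libraries, HSPB1 stood at -0.49 in OE_IFI, against 1.08 in OE_NC, and ISG15 at -0.43 in OE_IFI, against 0.99 in OE_NC. HSPH1 was nearest to DNAJB4, an HSP40 gene (0.173), and IFI44, another interferon-induced gene (0.197). HSP90AB1 was nearest to PDIA4, a disulfide isomerase gene of the endoplasmic reticulum (0.083), and CTSL (0.084). BAG3 was nearest to a gene listed as AC129492.1 (0.195) and to NPAS2 (0.212). HSP90AA1 had no close neighbour: SELENOW and ANXA1 differed from it by 0.472 and 0.48, against its own spread of 0.833. Differences were smaller for genes that varied little: HSF1 lay 0.059 from ZC3H7B and from CDC20, against its own spread of 0.157. HSF2 lay 0.098 from ATF6 and 0.1 from UGT8, CHORDC1 0.103 from TFPI and 0.129 from HPS3, HSPB8 0.133 from MADD and 0.134 from NAT10, and CRYAB 0.153 from HSPB3 and 0.166 from PDE2A.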

How the data were processed

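The deposited values are FPKM per gene and per transcript, computed by the authors. Per the submitters' processing notes, the tools were edgeR, Cuffdiff, StringTie and HISAT2, with no version or role. Genome build and strand use were not given in the sources used here. Deposited coordinates, printed as given, overlapped GENCODE 29 (GRCh38) for 19681 of 19702 genes with the same identifier. A gene's FPKM was the sum of its transcripts (within 0.01 FPKM). Low values lay on steps, but 39.0% to 45.7% of them per library were within 0.05 of a whole step, which did not give back whole reads. The absolute depth is therefore unknown and no count test was run.

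Genes of the protein-coding table that averaged 1 FPKM or more were fitted as log2(FPKM + 1) with limma 3.58.1 (R 4.3.3), as 1 group-means model of 12 libraries with 8 residual degrees of freedom and a trended prior variance. Tests were two-sided, with Benjamini-Hochberg adjustment over all tested genes and a threshold of 0.05. The fit was tested on simulated data. The 10 genes and the lists were chosen with earlier results of these data known. Of each list, up to 3 tested genes of highest mean were named, with all called co-chaperones, and transcripts holding at least 10% of a gene in a group mean. HSP90AB1-202, HSPA1A, HSPA1B and DYRK2 fall outside this rule. The 2 nearest patterns of each gene were taken from the tested genes outside the 10. Tables were handled with pandas 2.3.3 and plots drawn with matplotlib 3.10.9. Alternatives changed the pseudocount to 0.1, the filter to none or to 5 FPKM, and the scaling to median-of-ratios or quantile; others used no trend, a robust prior, only the 2 groups compared, a replicate block, the table of all annotated genes, each library left out, and FPKM times transcript length (chosen after seeing the data). Promoter sequences are from RefSeq (GRCh38.p14), which has entries for 8 of the 10 genes. The deposited table of long non-coding transcripts was not used here.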

Additional observations from a re-analysis of the deposited data

Results flagged for a closer look

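HSP90AB1 had values on opposite sides of the 2 controls. Every OE_IFI library lay below every OE_NC library (log2 difference -0.63), as for 9.78% of all tested genes, in the comparison used to select the genes. Every sh_IFI library lay above every sh_NC library (0.28, limma adjusted p = 0.82), as for 9.46% of all tested genes, and this difference did not pass. The OE_NC libraries lay above the other 9, and OE_IFI minus sh_NC was -0.03. The first difference minus the second was -0.91 on the log2 scale, and whether the arms differ was not tested.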

How the results depend on the processing

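In sh_IFI minus sh_NC 0 of the 10 genes were called under each alternative. With only the 2 groups compared, calls numbered 167 over all genes for OE_IFI minus OE_NC (837 in the main analysis) and 2 among the 10 genes (4), 429 for OE_NC minus sh_NC (822), 5 for OE_IFI minus sh_NC (2) and 1 for sh_IFI minus sh_NC (0). This fit has fewer libraries. For OE_IFI minus sh_NC the count was 1 with a minimum mean of 5 FPKM and 4 in the table of all annotated genes. Leaving out each library in turn gave 503 to 859 calls for OE_IFI minus OE_NC (2 to 4 of the 10 genes lower), 319 to 935 for OE_NC minus sh_NC (2 to 4 higher), 2 to 5 for OE_IFI minus sh_NC and 0 to 1 for sh_IFI minus sh_NC. Where no value above shows the cause, it was not tested.

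Signs changed only for differences that were never called. In OE_IFI minus sh_NC HSP90AB1 was 0.02 with median-of-ratios scaling and CHORDC1 0.01 with quantile normalization. With libraries left out, ranges in OE_IFI minus sh_NC were -0.13 to 0.12 for HSP90AB1, -0.31 to 0.09 for CHORDC1, -0.07 to 0.26 for CRYAB, -0.62 to 0.36 for HSP90AA1 and -0.30 to 0.20 for HSPH1. In OE_IFI minus OE_NC they were -0.12 to 0.06 for HSF2 and -0.16 to 0.29 for HSPB8. In OE_NC minus sh_NC they were -0.42 to 0.03 for HSPB8, -0.02 to 0.12 for HSF1 and -0.07 to 0.26 for IFI6. In sh_IFI minus sh_NC they were -0.10 to 0.08 for HSP90AA1, -0.06 to 0.09 for HSF2, -0.21 to 0.01 for HSPH1 and -0.05 to 0.22 for HSPB8.

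The labels state no pairing of libraries by replicate number. In their deviations from the group means, same-numbered libraries correlated at 0.09, 0.25 and 0.12 in the overexpression arm, against -0.15 to 0.03 for its other pairs. In the interference arm they correlated at -0.04, -0.01 and -0.03. A replicate block gave 802 calls for OE_IFI minus OE_NC, 5 of the 10 genes lower (HSP90AA1 added, at -1.58) and 0 for sh_IFI minus sh_NC. In the overexpression arm each library correlated best with its own number, a hint from the data and not from the design. The 3 libraries per group and the low FPKM of CRYAB, CHORDC1 and BAG3 limit what can be detected, and FPKM without counts give no counting interval for a single library.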
